A study of Owenia fusiformis with 26 samples.

Results

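Isolated reproducible open regions are stretches of accessible chromatin with no other reproducible open region near them. They are described here in the annelid *Owenia fusiformis* at the coeloblastula stage (5 hours post fertilisation, hpf). They were chosen from ATAC-seq peaks. In ATAC-seq the enzyme Tn5 places adapters where DNA is free of nucleosomes, so that reads pile up over accessible sites. A region is a replicate 1 peak that shares at least 1 base with a peak of replicate 2, which makes it reproducible here, that is shorter than 2000 bases, and whose gap to every other reproducible peak of replicate 1 on its scaffold is over 20 kb. Of 118443 peaks in replicate 1, 55896 were reproducible (47.2%), and 641 of these met the rule (1.15%; Wilson 95% interval 1.06% to 1.24%, for counting error only). The number depends on what was called in each library. With no overlap asked for, and the gap taken to every peak of the library, 125 peaks of replicate 1 or 391 peaks of replicate 2 met the rule. Where the overlap had to cover 50% of both peaks, 2012 did. The reproducible peaks under 2000 bases numbered 54965, so 54324 others were left to set beside the isolated ones, and 14 further isolated peaks were 2000 bases or longer.

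The series followed *O. fusiformis* from the oocyte to the larva, with 24 RNA-seq libraries and 2 ATAC-seq libraries at 5 hpf. Both ATAC-seq libraries came from untreated whole coeloblastulae, many embryos pooled in each. The labels name no strain, genotype or parents, so whether the replicates are separate batches of embryos is not known and their spread may be technical. In pooled embryos, openness in fewer cells and weaker openness in each cell cannot be told apart. There is 1 condition and no control, and with 2 libraries an exact two-sided sign test cannot go below p = 0.5. Differences are therefore given as descriptions with no test, in each replicate where both were measured. The rule used the overlap, length and position of the peaks, and the strength and summits come from the same peak calls.

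Open chromatin marks DNA that is free of nucleosomes, mostly promoters, where transcription starts, and enhancers, which bind transcription factors and act on promoters from a distance. In animal genomes such elements often lie in groups around a gene. At the coeloblastula stage the embryo of *O. fusiformis* is a hollow ball of cells, formed by spiral cleavage, shortly before gastrulation. The scaffold names of the peaks differ from those of the reference gene table, whose sequences are of other lengths. Genes beside the regions, promoters, base composition, motifs, repeated sequence and gaps in the assembly were therefore not analysed here.

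The gap that defines the set was between 20001 and 64202 bases on the nearer side, with a median of 25240 bases (quartiles 22213 and 30533). The other regions had a median gap of 2435 bases on the nearer side. The nearer gap was over 30 kb for 174 isolated regions, over 40 kb for 60 and over 50 kb for 20. On the wider side the median was 38024.5 bases and the largest gap was 219408 bases. These gaps made up 41.1 Mb, or 8.25% of the 498 Mb between the first and last reproducible peaks of the scaffolds, although they were 2.08% of all gaps between reproducible peaks. The isolated regions themselves covered 368 kb.

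**Figure D1:**
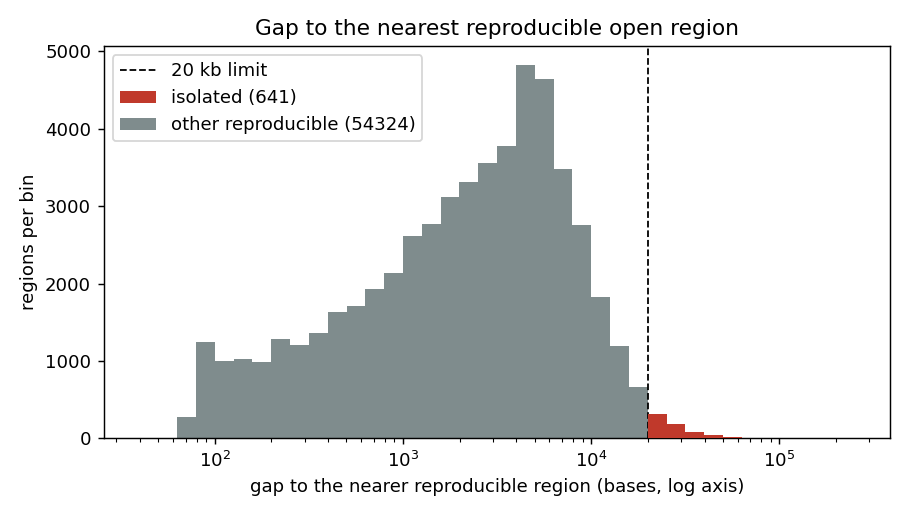
Number of reproducible regions under 2000 bases per bin (y axis) by the gap to the nearer reproducible region (x axis, bases, log scale), with the 641 isolated regions in red and the 54324 others in grey. The isolated regions are the far end of 1 continuous distribution, and the 20 kb limit (dashed line) falls on its slope, with no break between the sets.

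Values just inside and just outside the limit overlapped in both replicates. Just inside it lay Scaffold06:7948702-7949099, Scaffold20:2669933-2670313 and Scaffold01:2751712-2751886, with nearer gaps of 20001, 20009 and 20027 bases fold enrichments in replicate 1 of 3.15, 2.33 and 1.84, and fold enrichments in replicate 2 of 2.46, 2.39 and 2.32. Just outside lay Scaffold25:4263060-4263862, Scaffold04:17135639-17136058 and Scaffold14:5495454-5495703, with gaps of 20000, 19998 and 19977 bases fold enrichments in replicate 1 of 2.91, 2.16 and 2.12, and fold enrichments in replicate 2 of 3.28, 2.19 and 3.14. Coordinates are 1-based on the scaffolds of the deposited files, whose genome build is not named in them.

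The fold enrichment at the summit, the highest point of a peak over its local background, had a median of 2.87 in the isolated regions and 2.68 in the others in replicate 1, a ratio of 1.07. In the partner peaks of replicate 2 the medians were 2.73 in isolated regions and 2.59 in others, a ratio of 1.06. The sets overlapped widely, with quartiles of 2.36 and 3.79 in isolated regions and 2.23 and 3.39 in others in replicate 1, and of 2.35 and 3.42 in isolated regions and 2.26 and 3.12 in others in replicate 2. Fold enrichment reached at least 5 in 67 isolated regions in replicate 1 (10.5%, Wilson interval 8.31% to 13.1%), against 6.2% of all reproducible regions under 2000 bases. In replicate 2 it did so in 44 isolated regions (6.86%, interval 5.15% to 9.09%), against 3.72% of all. In both replicates it did so in 37 isolated regions (5.77%, interval 4.22% to 7.85%), against 2.93% of all. Among regions with a nearer gap of 10 to 20 kb the shares were 9.61% in replicate 1, 5.62% in replicate 2 and 4.56% in both. Each lies within the interval of the isolated regions, so the higher shares are not particular to them.

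Fold enrichment combines 2 quantities, and both could be recovered. The fold and the p of each deposited peak are given together by a whole number of reads over the summit, here called the summit pileup, and an expected number of reads, the local background. The pair matched every deposited p, with a largest relative error of 1.8e-05 in replicate 1 and 2.62e-05 in replicate 2. The local background had a floor, the level over the whole genome, of 24.045 reads in replicate 1 and 13.628 reads in replicate 2, a ratio of 1.76. In replicate 1 the background stood at this floor in 531 isolated regions (82.8%), against 39.7% of all reproducible regions under 2000 bases. In replicate 2 it did so in 525 isolated regions (81.9%), against 37.5% of all. These shares are not independent of the rule, since the background is local and the rule kept regions with no other reproducible peak nearby.

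Over all regions the median summit pileup ran the other way from the fold enrichment. It was 72 reads in the isolated regions and 77 reads in the others in replicate 1, and 40 reads in the isolated regions and 42 reads in the others in replicate 2. A pileup above the 90th percentile, 141 reads in replicate 1 and 71 reads in replicate 2, was found in 56 isolated regions in replicate 1 (8.74%, Wilson interval 6.79% to 11.2%), against 9.94% of all, and in 50 in replicate 2 (7.8%, interval 5.97% to 10.1%), against 9.54% of all. Both shares lie within counting error of those of all regions. The regions were then divided by background, a comparison chosen after seeing the data. Where the background was at its floor in both replicates, the median fold enrichment in replicate 1 was 2.83 in 503 isolated regions and 2.68 in 17007 others, and in replicate 2 it was 2.73 in isolated regions and 2.60 in others. The median summit pileup of these regions was 70 reads in isolated ones and 66 reads in others in replicate 1, and 39 reads in isolated ones and 37 reads in others in replicate 2, so there it ran the same way as the fold. In the remaining 138 isolated regions and 37317 others it was 78 reads in isolated ones and 84 reads in others in replicate 1, and 42.5 reads in isolated ones and 45 reads in others in replicate 2.

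Both measures were then followed over the range of gaps. From a nearer gap of up to 1 kb, through 1 to 5, 5 to 10 and 10 to 20 kb, to the isolated regions, the median fold enrichment in replicate 1 was 2.56, 2.68, 2.83, 2.85 and 2.87. In replicate 2 it was 2.58, 2.53, 2.62, 2.67 and 2.73, so there the order held from 1 to 5 kb on. The median summit pileup over these steps was 77, 78, 75, 74 and 72 reads in replicate 1, highest at 1 to 5 kb, and 44, 43, 41, 40 and 40 reads in replicate 2, with no difference at the last step. The share of regions with the background at its floor in replicate 1 was 29.6%, 33.0%, 56.6%, 69.4% and 82.8%, and in replicate 2 it was 26.9%, 31.0%, 54.1%, 68.6% and 81.9%. The medians of fold enrichment and pileup in isolated regions were thus close to those of regions with a gap of 10 to 20 kb. The share at the floor was higher in the isolated ones, but it rose with the gap, which the rule used. It is therefore no separate trait of the isolated regions, and fold enrichment is a ratio to this same background.

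**Figure D2:**
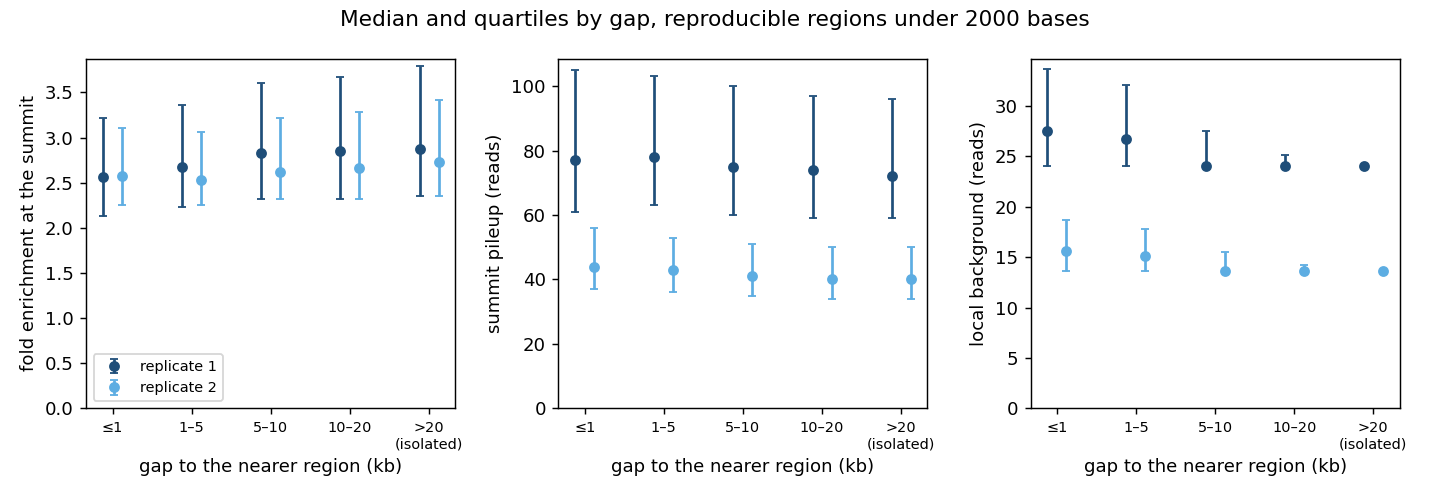
Medians (points) and quartiles (bars) of the fold enrichment, the summit pileup in reads and the local background in reads (y axes) by the gap in kb to the nearer reproducible region (x axes), for reproducible regions under 2000 bases in replicate 1 (dark) and replicate 2 (light). In the isolated regions, at the right of each panel, the median background is at its floor of 24.045 and 13.628 reads, and the quartiles of the other measures overlap those of every other gap.

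The median length in replicate 1 was 473 bases in isolated regions and 507 bases in the others, a ratio of 0.933. This order turned round with -log10 q of at least 5 in both replicates (1.004) and with an isolation distance of 10 kb (1.01), and the median of regions with a gap of up to 1 kb was 461 bases. Their partners in replicate 2 had a median of 276 bases, against 307 bases for the partners of the others. Since long peaks tend to be strong ones, the sets were also compared at like length. Among peaks of 100 to under 300 bases, the median fold enrichment in replicate 1 was 2.44 in 181 isolated regions and 2.16 in 13715 others. At 300 to under 600 bases it was 3.03 in 220 isolated regions and 2.64 in 18198 others. At 600 to under 1000 bases it was 3.01 in 146 isolated regions and 2.96 in 13864 others, and at 1000 to under 2000 bases 3.38 in 94 isolated regions and 3.23 in 8547 others. In replicate 2 the medians from the shortest to the longest class were 2.60, 2.80, 2.85 and 2.82 in isolated regions and 2.46, 2.57, 2.67 and 2.74 in others.

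The median summit pileup of the shorter regions was close in both sets, and that of the longer ones was lower in the isolated set. In replicate 1 its median was 60 reads in isolated regions and 59 reads in others at 100 to under 300 bases, and 75.5 reads in isolated regions and 75 reads in others at 300 to under 600 bases. At 600 to under 1000 bases it was 78 reads in isolated regions and 87 reads in others, and at 1000 to under 2000 bases 96 reads in isolated regions and 102 reads in others. In replicate 2, with the same regions in each class, the medians from the shortest to the longest class were 38, 40, 41 and 42 reads in isolated regions and 39, 42, 44 and 49 reads in others.

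The strongest isolated region in both replicates, by the sum of its ranks, was Scaffold16:8116639-8116861. It was only 223 bases long, with a summit pileup of 1123 reads in replicate 1 and 504 reads in replicate 2 and a fold enrichment of 19.6 and 16.7. Its local background, 56.3 reads in replicate 1 and 29.3 reads in replicate 2, was above the floor, and its summit was at the same base in both replicates. No other peak of either replicate lay within 20 kb of it, and its gaps were 55881 and 38557 bases. Whether the region lies in repeated sequence was not tested.

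The next strongest regions were longer. Scaffold06:18265033-18265691, of 659 bases, had 455 reads at its summit in replicate 1 and 179 reads in replicate 2. Scaffold17:107031-107856, of 826 bases, had 353 and 290 reads, and was the 1 of the 5 strongest with a higher fold enrichment in replicate 2, at 14.6, than in replicate 1, at 11.7. Scaffold01:5129115-5130106, of 992 bases, had 323 and 188 reads. Scaffold02:24783639-24784493, of 855 bases, had 260 and 140 reads. In these 4 regions the summits of the replicates were 2, 0, 5 and 13 bases apart. The 37 regions with a fold enrichment of at least 5 in both replicates were 129 to 1877 bases long, with a median of 555 bases, and 7 of them were under 300 bases.

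**Figure D3:**
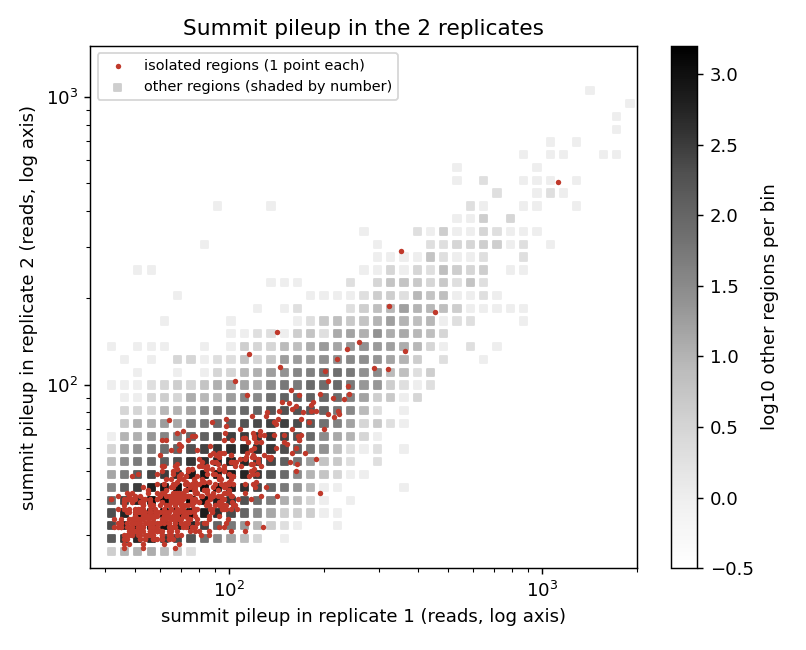
Summit pileup of each reproducible region in replicate 1 (x axis) and of its best partner in replicate 2 (y axis), in reads on log axes, with the 641 isolated regions as red points and the others as grey squares shaded by number. The isolated regions lie inside the cloud of the others, and the point at the upper right is the region of 1123 and 504 reads on Scaffold16. Of the other regions, 4 lie outside the axes.

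The replicates ranked the isolated regions much alike. Over the 641 regions, Spearman's rho between the summit pileups of the replicates was 0.69, and it was 0.72 over the 54324 others. For fold enrichment rho was 0.69 in isolated regions and 0.65 in others. The points share their libraries, so these values describe the 2 libraries only. The median ratio of the pileup in replicate 1 to that in replicate 2 was 1.82 in isolated regions and 1.81 in others, close to the ratio of 1.76 between the background floors.

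The summits of the replicates, which the rule did not use, lay a median of 45 bases apart in isolated regions (quartiles 9 and 126) and 53 bases apart in others (quartiles 14 and 145). Where a region had several partners, the nearest summit was taken. The rule asks for overlap, so the lengths of the peaks limit this distance. The summits were within 100 bases of each other in 435 isolated regions (67.9%, Wilson interval 64.2% to 71.4%), against 64.5% of all reproducible regions under 2000 bases. At like length the median distance was 29 bases in isolated regions and 35 in others at 100 to under 300 bases, 29 in isolated regions and 47 in others at 300 to under 600, 59 in isolated regions and 69 in others at 600 to under 1000, and 115 in isolated regions and 110 in others at 1000 to under 2000. The median distance was thus shorter in isolated regions in each class but the longest. The interval of the share within 100 bases holds that of all regions. Regions with a gap of 10 to 20 kb were close to the isolated ones, with a median distance of 48 bases and 66.2% within 100 bases. A single partner in replicate 2 was found for 592 isolated regions (92.4%). Another 42 had 2 partners (6.55%, against 9.06% of the others). A further 7 had 3 or more (1.09%, interval 0.53% to 2.24%), slightly above the 0.935% of the others. By length class, from the shortest up, a single partner was found for 100%, 99.1%, 87.7% and 69.1% of isolated regions. In the others these shares were 99.6%, 96.5%, 86.3% and 66.6%. The interval of the isolated regions held the share of the others in each class but 300 to under 600 bases. The partner was shorter than the peak of replicate 1 in 78.9% of isolated regions and 77.4% of others.

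**Figure D4:**
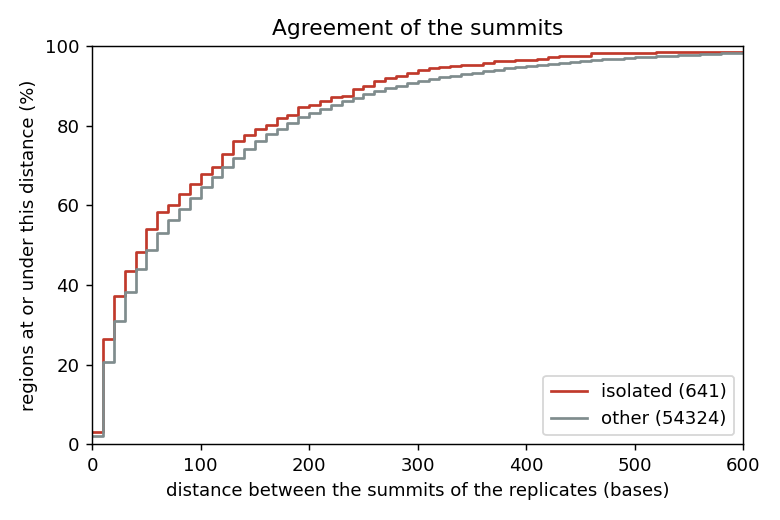
Share of regions in % (y axis) whose summits in the 2 replicates lie at or under a given distance in bases (x axis), for the 641 isolated regions (red) and the 54324 others (grey). The red line runs slightly above the grey one, with 67.9% of isolated regions within 100 bases. The sets are not matched for length here. The isolated regions were shorter, with a median of 473 bases against 507 bases in replicate 1.

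Few isolated regions stood in chromatin without any other peak. Within 20 kb of 602 of them (93.9%, Wilson interval 91.8% to 95.5%) lay at least 1 peak called in 1 replicate only, against 99.2% of the others. Such peaks came mostly from replicate 1, with a mean of 4.02 within 20 kb of an isolated region and 5.37 within 20 kb of the others. Peaks of replicate 2 only averaged 0.833 around isolated regions and 1.02 around others. These neighbours were weak peaks. The 2497 peaks of replicate 1 only beside isolated regions had a median fold enrichment of 2.08 and a summit pileup of 52 reads, and the 513 of replicate 2 only had 2.26 and 33 reads. All peaks of replicate 1 only, 62547 in number, had medians of 2.01 and 56 reads, and the 11871 of replicate 2 only had 2.19 and 34 reads, so the neighbours of isolated regions were close in strength to all peaks called in 1 replicate only. For 2 isolated regions a shared peak of replicate 2 also reached into the 20 kb, although the replicate 1 peak it overlaps lay outside.

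The remaining 39 isolated regions (6.08%, interval 4.48% to 8.21%) had no other peak of either replicate within 20 kb. The median length of the 39 was 357 bases in replicate 1 and 201 bases in replicate 2. Their summit pileup ran up to the 1123 and 504 reads of the region on Scaffold16, with a median of 67 reads in replicate 1 and 40 reads in replicate 2. Their summits lay a median of 24 bases apart. Scaffold32:906922-908059, of 1138 bases, was the longest of them and had 172 reads in replicate 1 and 80 reads in replicate 2, with gaps of 50858 and 72171 bases. Scaffold10:956173-956630 had 142 reads in replicate 1 and 152 reads in replicate 2, so its pileup was higher in replicate 2, where the background floor was lower.

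The 5 regions with the widest nearer gaps varied in strength. Scaffold21:3642330-3642595 had gaps of 69277 and 64202 bases and a summit pileup of 60 reads in replicate 1 and 57 reads in replicate 2. Scaffold10:8972255-8972609, with gaps of 64679 and 61706 bases, was the strongest, with 147 and 87 reads and a fold enrichment of 5.91 and 6.02. Scaffold23:1687533-1688084 had 96 and 42 reads, and its gaps were 64588 and 61376 bases. Scaffold37:540356-540612, with 64 and 75 reads, had no other peak of either replicate within 20 kb and gaps of 129337 and 60442 bases. Scaffold24:5193839-5194045 had 68 and 42 reads, and its gaps were 57384 and 88671 bases. They were 266, 355, 552, 257 and 207 bases long, so only the region on Scaffold23 was longer than the median isolated region.

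At the ends of the length range, the longest isolated regions were Scaffold02:29768952-29770947, of 1996 bases, and Scaffold17:11286269-11288251, of 1983 bases. The region on Scaffold02 had 242 reads in replicate 1 and 93 reads in replicate 2, and that on Scaffold17 had 167 and 64 reads and 2 partners in replicate 2. The shortest were Scaffold28:4118312-4118412, of 101 bases, with 48 and 36 reads, and Scaffold02:27653202-27653303, of 102 bases, with 51 and 34 reads. The lowest summit pileup of the set was 42 reads in replicate 1 and 27 reads in replicate 2, and its lower quartile was 59 and 34 reads, so both short regions lay under the lower quartile in replicate 1 and at or just above it in replicate 2.

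Isolated regions occurred on 36 of the 40 scaffolds, and their share of the reproducible peaks was uneven. It was highest on Scaffold37, with 6 of 73 peaks (8.22%, Wilson interval 3.82% to 16.8%). Among scaffolds with over 500 reproducible peaks it was highest on Scaffold25, with 21 of 713 (2.95%, interval 1.93% to 4.46%), Scaffold28, with 14 of 506 (2.77%), Scaffold19, with 28 of 1032 (2.71%), and Scaffold10, with 45 of 2001 (2.25%, interval 1.68% to 3.0%). Among these scaffolds it was lowest on Scaffold27, with 3 of 796 (0.377%, interval 0.128% to 1.10%), Scaffold12, with 9 of 2113 (0.426%, interval 0.224% to 0.808%), and Scaffold22, with 5 of 1158 (0.432%). The smaller Scaffold31 had 1 of 400 (0.25%, interval 0.0441% to 1.40%). The intervals of Scaffold10 and Scaffold12 lie on either side of the 1.15% of all scaffolds. Scaffold35, Scaffold38, Scaffold39 and Scaffold40, with 153, 83, 87 and 39 reproducible peaks, held none. The rule uses gaps, so the share depends on how densely reproducible peaks lie. Per Mb there were 81.4 on Scaffold37, 98.0 on Scaffold25, 85.9 on Scaffold28, 97.9 on Scaffold19 and 102.7 on Scaffold10. Scaffold27 had 121.6, Scaffold12 had 116.0, Scaffold22 had 127.5, Scaffold31 had 119.5, and the scaffolds without an isolated region had 120.9 to 182.5. The part of this density in the uneven share was not tested.

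**Figure D5:**
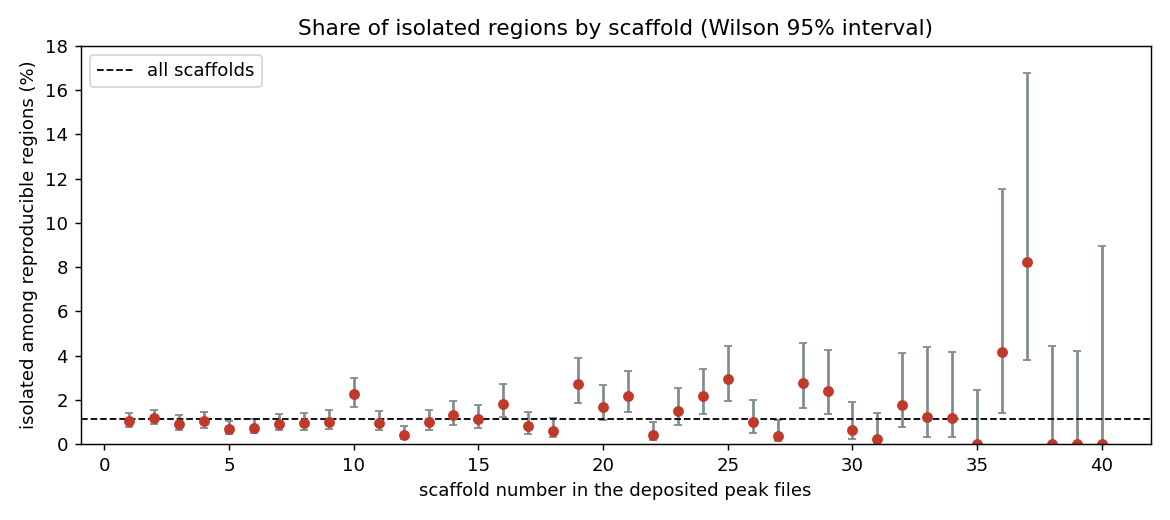
Share of the reproducible peaks of a scaffold that are isolated, in % (y axis), by scaffold number (x axis), with Wilson 95% intervals as bars and the 1.15% of all scaffolds as a dashed line. Scaffold10, at 2.25%, and Scaffold19, at 2.71%, lie above the line, Scaffold12, at 0.426%, lies below it, and the short scaffolds at the right have wide intervals.

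Some isolated regions were neighbours along a scaffold, which the rule itself favours, since a gap of over 20 kb counts for the regions on both its sides. Of the 641, 207 had another isolated region as a neighbour, in 77 runs of 2, 15 runs of 3 and 2 runs of 4, and the other 434 had none. In the run of 4 on Scaffold15, between bases 1587880 and 1693837, the regions were 173, 532, 150 and 470 bases long, with summit pileups of 93, 60, 53 and 83 reads in replicate 1 and 32, 31, 38 and 43 reads in replicate 2. The order of strength in this stretch differed between the replicates. The first or last reproducible peak of a scaffold accounted for 9 isolated regions, which have a neighbour on 1 side only.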

How the data were processed

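ATAC-seq was measured in 2 replicates of the coeloblastula (5 hpf). The authors deposited a list of peaks per library, not pooled. The submitters' processing notes name MACS2 2.2.7.1, with no settings. The deposited columns hold a score, the fold enrichment at the summit (a ratio) and -log10 p and q, with q at -log10 of 2.0 or more. The authors' reads and the genome build were not used here, and the total depth is unknown.

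Overlaps and gaps were computed with Python 3.11.15, numpy 2.4.6, pandas 2.3.3 and scipy 1.17.1. The best partner in replicate 2 is the overlapping peak with the highest -log10 q. The distance between summits was instead taken to the nearest summit among all overlapping peaks of replicate 2. Summit pileup x and background b were solved from fold = (x + 1)/(b + 1) and the upper Poisson tail of p, with x a whole number; in MACS2 a read is extended before it is counted, so x is not a number of independent molecules. The solution for x and b and the gap and length rule were tested on simulated data. There every peak of replicate 1 had a partner in replicate 2, so the choice of reproducible peaks and of the best partner was not tested.

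The members and lists were chosen with earlier results of these data known. The regions named are the 5 strongest in both replicates by rank sum of -log10 q, the 5 with the widest nearer gap, the 3 nearest the gap limit on each side, and the 2 longest and 2 shortest; the run of 4 regions and the regions on Scaffold32 and Scaffold10 without other peaks around them were chosen after their values were seen. Scaffolds were named by their share of isolated regions, also after seeing the values. The RNA-seq table was not used, since it gives no gene positions. Alternatives are listed in the closing section.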

Additional observations from a re-analysis of the deposited data

How the results depend on the processing

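Under other settings 89 values were set beside the main ones, of which 32 kept their direction and size within set limits. For a count the limit was a fixed factor, so that 547 regions under 1000 bases passed. For shares it was the Wilson interval, and for the summit distance 33 to 50 bases. For ratios it was the standard deviation between the ratios of the 2 replicates, 0.0114 for fold enrichment and 0.0240 for length. The 32 include the values with every row of the files taken as a peak, which could not differ because no rows share their start and end. The main values were 641 isolated regions, 1.15% of reproducible peaks, ratios of the median fold enrichment of isolated over other regions of 1.07 in replicate 1 and 1.06 in replicate 2, a length ratio of 0.933, a summit distance of 45 bases and 93.9% with a peak of 1 replicate within 20 kb. With an overlap of at least 50% of both lengths, there were 2012 regions (6.16%), with fold ratios of 1.03 and 1.02, a length ratio of 0.962 and 97.7% with such a peak. For this share, peaks of 1 replicate kept their main definition. The neighbours were thus not redefined by the 50% overlap or by the -log10 q limit. With -log10 q of at least 5, there were 1874 (5.66%), with fold ratios of 1.04 and 1.04, a length ratio of 1.00, now above 1 (1.004), and 97.4%. At 10 kb there were 4325 (7.74%), with a fold ratio in replicate 2 of 1.03, a length ratio of 1.01, reversed, and 97.8%. At 50 kb there were 20 (0.0358%), with fold ratios of 1.29 and 1.32, a length ratio of 0.750, 31 bases and 70%. Isolation from every replicate 1 peak left 66 (0.118%), with 1.04 and 1.13, 0.748, 30 bases and 40.9%. Isolation from every peak left 39 (0.0698%), with 1.01 and 1.08, 0.704, 24 bases and 0%, the last fixed by this setting. Under 1000 bases, the isolated were 0.979% of peaks, with a fold ratio in replicate 2 of 1.08 and a length ratio of 0.904. Without the first and last peaks, the fold ratio in replicate 1 was 1.06. With replicate 2 defining the regions, the share was 1.03%, the fold ratios were 1.02 and 1.09 and the length ratio was 0.979. Without replicate 1 or 2, no overlap was asked for and the gap was to every peak of the library. There were then 391 regions without replicate 1, or 0.532% of all 73474 peaks of replicate 2. Without replicate 2 there were 125, or 0.106% of all 118443 peaks of replicate 1. The fold ratios were then 1.09 and 1.09 and the length ratios 0.811 to 0.906.

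Alternatives chosen after seeing the data were the summit pileup instead of fold enrichment, with reversed ratios of 0.935 and 0.952, and regions at the background floor in both replicates only, with 1.06 in replicate 1. In these last regions the median pileup was also higher in isolated regions, with 70 against 66 reads in replicate 1 and 39 against 37 reads in replicate 2. Leaving out the length limit changed no value beyond the limits given above.

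No paired analysis was possible because no test between groups was made. Comparisons that need gene positions or a genome (promoter windows, base composition and motif windows, nearest-gene RNA with its filters, pseudocounts and replicate block) were not run. With 2 libraries of 1 stage, no control, settings of the peak caller not given in the sources used here and weak peaks near the q limit, the number of isolated regions rests on what was called in each library. The part of sequencing depth in which peaks were shared was not tested.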

Other observations

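The 14 isolated peaks of 2000 bases or longer, which the length limit left out, were 2004 to 3808 bases long in replicate 1, with a median of 2468.5 bases. Their best partners in replicate 2 had a median of 828 bases, and each had 1 to 5 partners. Their median summit pileup was 111.5 reads in replicate 1 and 50.5 reads in replicate 2, against 96 and 42 reads in isolated regions of 1000 to under 2000 bases. Their summits lay a median of 101.5 bases apart.

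Reproducibility was also set against isolation within a replicate, where all peaks count and no overlap is needed to be isolated. Of the 126 peaks of replicate 1 with no other peak of replicate 1 within 20 kb, 67 were shared with replicate 2 (53.2%, Wilson interval 44.5% to 61.7%), against 45.8% of the 59770 peaks with a gap of up to 1 kb. Of the 393 such peaks of replicate 2, 319 were shared with replicate 1 (81.2%, interval 77.0% to 84.7%), against 85.3% of the 30879 with a gap of up to 1 kb. The interval of replicate 1 holds the share it is set against, and that of replicate 2 lies below it. By fold enrichment, 64.5%, 92.7% and 97.8% of the isolated peaks of replicate 2 were shared at under 2.5, 2.5 to under 4 and 4 or more, against 79.3%, 93.5% and 99.7% of those with a gap of up to 1 kb. In replicate 1 the shares were 34.8% of 66, 64.1% of 39 and 90.5% of 21 isolated peaks, against 30.0%, 76.3% and 96.5%. Their intervals were 24.5% to 46.9%, 48.4% to 77.3% and 71.1% to 97.3%. Each holds the share it is set against, so no direction can be read in replicate 1. Peaks of replicate 2 with a gap of 10000 to 20000 bases were shared at 80.8%, and at 66.2% under a fold of 2.5. Both lie within the intervals of the isolated peaks, 77.0% to 84.7% and 57.0% to 71.3%. The lower shares in replicate 2 are thus not particular to isolated peaks.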
